A study of Homo sapiens with 4 samples.

Results

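The genes described here are 35 genes of sterol and fatty acid synthesis, of SREBP control and of LXR-linked cholesterol export and transport, taken by gene symbol from a count table of 56638 symbols. All 35 symbols were found in the table and all 35 had enough reads to be tested. They were read in MV4;11, an established human acute myeloid leukaemia line known for its KMT2A-AFF1 fusion gene and its FLT3 internal tandem duplication. The treated cells had received CU-T12-9, a synthetic compound that activates the paired receptors TLR1 and TLR2, at 1 µg/mL for 24 h (2 libraries). They were compared with the same parental line under vehicle for the same 24 h (2 libraries), named DMSO in the sample labels and PBS in the treatment protocol, and called DMSO here. All cells were grown in RPMI medium and the labels name no genetic change made for the study. Nothing in the labels states that replicate libraries were grown as separate cultures. The p-values therefore measure the spread between these libraries, which may be technical.

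Cells make cholesterol from acetyl-CoA through mevalonate, farnesyl diphosphate, squalene and a chain of sterol intermediates. When membrane cholesterol is low, SCAP escorts the SREBP transcription factors from the endoplasmic reticulum to the Golgi for cleavage, and the released factors switch on the genes of sterol and fatty acid synthesis; INSIG proteins hold SCAP back when sterols are plentiful. Oxysterols in turn activate the LXR nuclear receptors, which raise the ABC transporters that export cholesterol and the ubiquitin ligase MYLIP. In macrophages, Toll-like receptor signals are known to reshape both arms, so the question here is how synthesis genes stood against efflux genes under a TLR1/2 agonist.

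Library totals were 23087102 to 23201117 reads for CU-T12-9 and 23892934 to 25867733 reads for DMSO, so that 1 read stood for 0.0384 to 0.0442 CPM (CPM is the read count scaled to library size after TMM adjustment). All 10 myeloid markers checked, CD33, FLT3 and SPI1 among them, had at least 10 reads in every library. All 10 were also called, 7 higher and 3 lower under CU-T12-9, with ITGAM 4.18-fold and CD4 3.37-fold higher and LYZ 1.57-fold lower, and their part in the changes of the sterol genes was not tested. No erythroid or epithelial marker had a read, and the 5 T cell markers summed to at most 0.0428 CPM under CU-T12-9 and 0.115 CPM under DMSO. The 4 B cell markers summed to 1.58 to 1.64 CPM under CU-T12-9 and 1.04 to 1.61 CPM under DMSO. The 4 stromal and endothelial markers summed to 0.707 to 1.28 CPM under CU-T12-9 and 0.0768 to 0.0835 CPM under DMSO, most of it DCN, with 21 and 15 reads under CU-T12-9 and none under DMSO; its part in the results below was not tested. All 8 proliferation genes checked were lower under CU-T12-9, by 2.77-fold (PCNA) to 5.79-fold (RRM2), and the part of that fall in the changes of the sterol genes was not tested either. In bulk RNA, fewer cells of a type and less RNA per cell cannot be told apart.

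Under CU-T12-9 the enzymes of sterol and fatty acid synthesis were mostly lower. The cholesterol exporter ABCA1 and the lysosomal cholesterol carriers NPC1 and NPC2 were higher, NPC1 the least (log2 fold change 0.24). The LXR target MYLIP and the storage enzyme SOAT1 were lower (-0.40 and -0.36). Of the 35 genes, 18 fell and 9 rose, and 8 were not called (edgeR quasi-likelihood test, Benjamini-Hochberg adjusted p under 0.05 over all 14018 genes tested). Most tested genes differed between the groups, so these counts have to be read against a wide background: 65.2% of all tested genes were called, 32% higher and 33.2% lower, against 77.1% of the 35 genes, 25.7% higher and 51.4% lower. The values of the 2 groups did not overlap in 31 of the 35 genes, nor in 82.3% of all tested genes. The changes were of ordinary size. The median absolute log2 fold change was 0.39 for the 35 genes and 0.44 for all tested genes, and 2 of the 35, EBP and SCD, changed by more than 1 on the log2 scale, as did 20.8% of all tested genes. Fewer than these 9 rises were called with the first or the second DMSO library left out, and fewer rises over all tested genes as well.

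**Figure D1:**
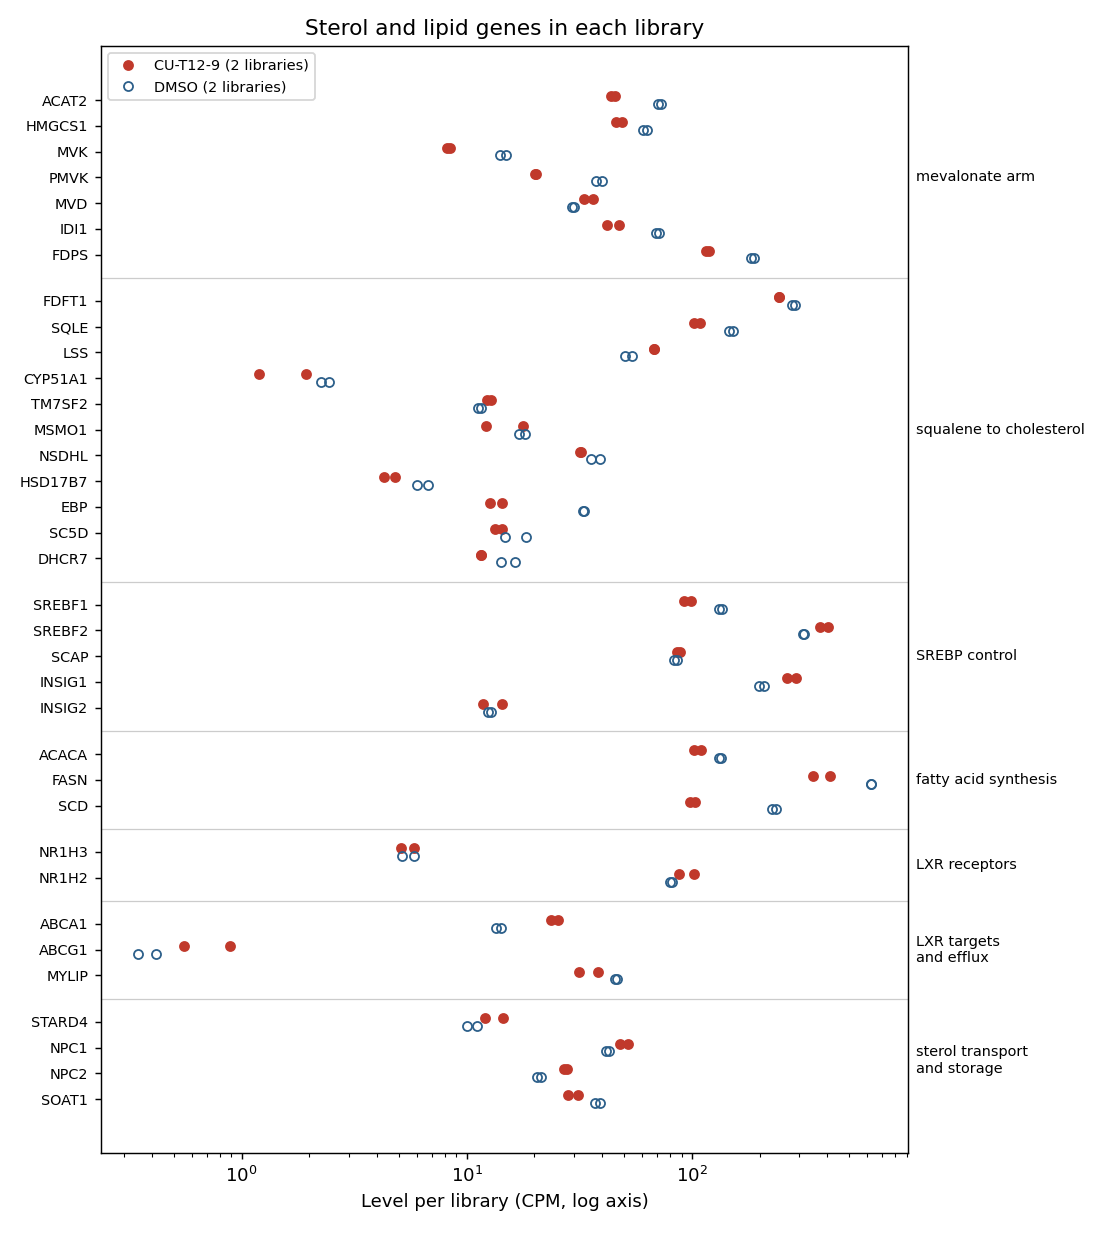
Level of each of the 35 genes in each library, in CPM on a log axis, grouped by role; filled points are the 2 CU-T12-9 libraries and open points the 2 DMSO libraries. The CU-T12-9 points lie left of the DMSO points for most synthesis enzymes (EBP, 12.7 and 14.3 against 33.0 and 33.3 CPM) and right of them for ABCA1 (25.5 and 23.7 against 13.5 and 14.2 CPM); CPM is not scaled to gene length, so different genes cannot be ranked by it.

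By role, the synthesis enzymes leaned downward and the 9 genes of LXR, efflux and transport did not. These 9, called export and transport genes below, also hold the receptors NR1H2 and NR1H3, the ubiquitin ligase MYLIP and the storage enzyme SOAT1. Only ABCA1 and ABCG1 among them are cholesterol exporters. Of 18 enzymes of cholesterol synthesis, 12 fell and 2 rose (66.7% and 11.1%, against 33.2% and 32% of all tested genes). Their median log2 fold change was -0.45. Among the 9 genes of LXR, efflux and transport, 5 rose and 2 fell (55.6% and 22.2%, against 32% and 33.2% of all tested genes). Their median was 0.24, against a median of 0.00 over all tested genes. As a plain summary of level, the geometric mean of the 18 enzymes was 24.4 and 24.5 CPM in the CU-T12-9 libraries and 33.1 and 32.6 CPM in the DMSO libraries. For the 9 export and transport genes it was 17.0 and 18.3 CPM under CU-T12-9 and 14.8 and 15.1 CPM under DMSO. That is a log2 difference of 0.24, which was 0.19 with a pseudocount of 0.5 and 0.12 as summed CPM. Every gene counts alike in a geometric mean, also ABCG1 with 9 to 20 reads a library. The quotient of the second summary over the first was thus 0.696 and 0.748 in the CU-T12-9 libraries, above the 0.448 and 0.464 of the DMSO libraries. No p is given for these summaries, since the members were chosen. With the first or the second DMSO library left out, fewer rises were called among the export and transport genes and among the enzymes. The same held over all tested genes.

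**Figure D2:**
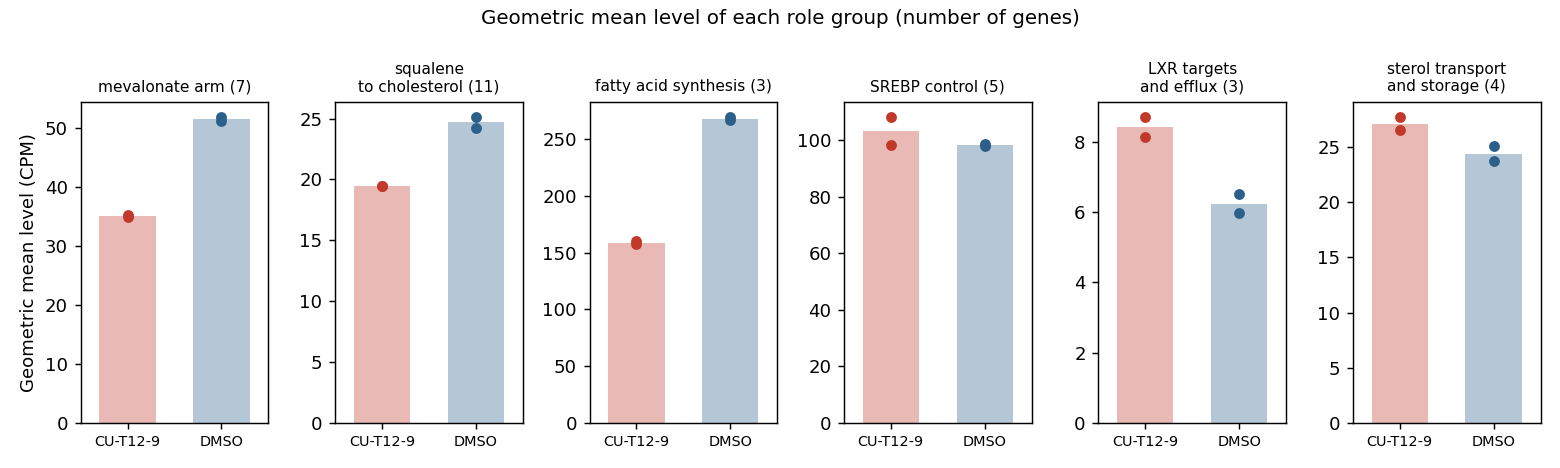
Geometric mean level in CPM of the genes of each role group, with the number of genes in brackets; points are libraries and bars the mean of the 2 libraries of a group, CU-T12-9 left of DMSO. The mevalonate arm (34.9 and 35.2 CPM under CU-T12-9, 51.2 and 51.8 CPM under DMSO) and fatty acid synthesis (158 and 160.4 against 269.7 and 267 CPM) are lower under CU-T12-9. The mean of the 3 genes listed as LXR targets and efflux (8.15 and 8.71 against 5.97 and 6.51 CPM) lies higher. Of these 3 genes 1 rose, 1 fell and 1 was not called. SREBF1, itself an LXR target, is in the SREBP control group.

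The promoters of these genes are shown for the 3 largest falls and the 3 largest rises among called genes with a single RefSeq promoter window, to set beside each other the control sequence of genes that moved in opposite directions. Windows for 30 of the 35 genes, all but FDFT1, SQLE, ACAT2, ABCG1 and FASN, were found in the RefSeq table of GRCh38.p14; the 250 bases before the start of transcription are printed 5′ to 3′ on the gene's own strand. Capitals mark matches on either strand to the NF-Y box CCAAT, the Sp box GGGCGG, the E-box CACGTG, the sterol element core CACNCCAC, and, in ABCA1, a direct repeat of AGGTCA with 4 bases in between at up to 2 mismatches; overlapping matches run together.
EBP, chrX:48521558-48521807 on the plus strand: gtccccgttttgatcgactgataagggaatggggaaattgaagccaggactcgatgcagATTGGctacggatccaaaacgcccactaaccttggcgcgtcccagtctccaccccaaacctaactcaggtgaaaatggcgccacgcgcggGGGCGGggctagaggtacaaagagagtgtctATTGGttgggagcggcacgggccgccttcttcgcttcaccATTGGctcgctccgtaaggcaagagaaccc
SCD, chr10:100346983-100347232 on the plus strand: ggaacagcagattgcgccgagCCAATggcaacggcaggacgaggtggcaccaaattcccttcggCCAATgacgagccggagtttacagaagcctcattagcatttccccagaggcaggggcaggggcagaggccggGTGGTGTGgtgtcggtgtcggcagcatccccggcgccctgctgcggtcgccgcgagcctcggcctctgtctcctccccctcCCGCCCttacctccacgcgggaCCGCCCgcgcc
PMVK, chr1:154936720-154936969 on the minus strand: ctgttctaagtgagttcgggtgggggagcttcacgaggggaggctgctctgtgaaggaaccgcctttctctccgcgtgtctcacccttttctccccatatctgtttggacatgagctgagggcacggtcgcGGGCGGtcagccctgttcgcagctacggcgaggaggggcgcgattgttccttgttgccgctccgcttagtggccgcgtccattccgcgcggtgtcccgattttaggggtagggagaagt
ABCA1, chr9:104928156-104928405 on the minus strand: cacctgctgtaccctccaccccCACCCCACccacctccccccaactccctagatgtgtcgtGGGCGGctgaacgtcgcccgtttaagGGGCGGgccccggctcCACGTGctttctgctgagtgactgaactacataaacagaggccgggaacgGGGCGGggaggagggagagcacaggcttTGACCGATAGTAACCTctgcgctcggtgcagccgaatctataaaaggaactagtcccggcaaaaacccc
INSIG1, chr7:155297628-155297877 on the plus strand: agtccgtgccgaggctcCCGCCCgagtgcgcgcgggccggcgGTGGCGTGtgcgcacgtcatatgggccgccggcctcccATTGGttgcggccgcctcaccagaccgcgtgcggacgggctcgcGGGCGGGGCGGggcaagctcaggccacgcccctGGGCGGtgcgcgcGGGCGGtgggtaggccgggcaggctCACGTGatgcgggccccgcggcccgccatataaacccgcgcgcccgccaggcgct
LSS, chr21:46228775-46229024 on the minus strand: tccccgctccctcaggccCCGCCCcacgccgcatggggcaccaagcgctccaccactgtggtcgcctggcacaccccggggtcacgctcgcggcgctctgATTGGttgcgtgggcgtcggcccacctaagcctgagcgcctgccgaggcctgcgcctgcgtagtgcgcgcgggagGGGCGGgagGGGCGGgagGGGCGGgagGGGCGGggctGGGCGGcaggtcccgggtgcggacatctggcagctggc

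NF-Y and Sp factors are known to act with SREBP on sterol-regulated promoters, and the boxes were frequent in both directions of change. The NF-Y box was present in 22 of the 30 genes (73.3%), against 32% of all 35114 windows and 32.7% of the windows of protein-coding genes. It stood in 13 of the 15 cholesterol synthesis enzymes with a window, and in 5 of the 8 export and transport genes. Of the 6 windows printed, EBP had 3 copies, SCD 2, INSIG1 and LSS 1 each, and PMVK and ABCA1 none. The Sp box was present in 29 of the 30 genes (96.7%; 42.6% of all windows, 53.7% of coding ones) and the E-box in 4 (13.3%; 6.35% and 7.37%). The sterol element core was found in 7 of the 30 genes (23.3%), namely ABCA1, ACACA, IDI1, INSIG1, SC5D, SCD and SREBF2, against 4.87% of all windows and 5.13% of coding ones. Those 7 include genes that fell (ACACA, IDI1, SCD) and genes that rose (ABCA1, INSIG1, SREBF2). The LXR repeat was found in none of the 30 genes at up to 1 mismatch (0.174% of all windows). At up to 2 mismatches, a setting chosen after the first result was seen, it was in ABCA1 alone, 69 bases before the start, and in 2.03% of all windows. A gene with several windows was counted once if any of them held the letters. The shares over all and coding windows were counted per window, so the 2 measures differ and genes with several windows had more chances of a match. A match describes the sequence without showing that a factor binds there.

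The mevalonate arm runs from acetyl-CoA to farnesyl diphosphate. Of its 7 enzymes 6 fell and 1 rose (85.7% and 14.3%, against 33.2% and 32% of all tested genes). The median log2 fold change of the arm was -0.67. The largest fall was in PMVK, phosphomevalonate kinase. It had 20.1 and 20.4 CPM in the CU-T12-9 libraries and 37.4 and 39.8 CPM in the DMSO libraries. The groups were far apart and PMVK was 1.91-fold lower (log2 fold change -0.93, SE 0.07, edgeR adjusted p = 4.4e-06). Mevalonate kinase, MVK, which acts just before it, had 8.47 and 8.13 CPM under CU-T12-9 and 14.0 and 14.9 CPM under DMSO. MVK fell 1.74-fold (log2 fold change -0.80, SE 0.10, edgeR adjusted p = 0.000121). The enzyme that follows both kinases went the other way: MVD, mevalonate diphosphate decarboxylase, had 33.2 and 36.4 CPM under CU-T12-9, slightly above the 30.1 and 29.3 CPM under DMSO. Its rise was small (log2 fold change 0.23, SE 0.07, edgeR adjusted p = 0.0222) and was not called without the first or the second DMSO library or by DESeq2 (adjusted p = 0.104, 0.178 and 0.118; range over 10 alternatives 1.96e-05 to 0.178).

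The other mevalonate enzymes also fell. FDPS, which makes farnesyl diphosphate, had 119 and 115 CPM under CU-T12-9 and 183 and 189 CPM under DMSO, well separated (1.59-fold lower, edgeR adjusted p = 3.55e-06). IDI1, the isomerase that supplies FDPS, had 41.8 and 47.6 CPM under CU-T12-9 and 71.8 and 69.2 CPM under DMSO (1.58-fold lower, edgeR adjusted p = 3.94e-05). At the entry of the pathway, ACAT2, the cytosolic acetoacetyl-CoA thiolase, had 45.8 and 43.7 CPM under CU-T12-9 against 70.5 and 72.9 CPM under DMSO. It was 1.60-fold lower (edgeR adjusted p = 8.89e-06), with no overlap between groups. The next enzyme, the HMG-CoA synthase HMGCS1, a standard SREBP target, moved less, with 48.9 and 45.8 CPM under CU-T12-9 and 63.1 and 60.5 CPM under DMSO (log2 fold change -0.38, SE 0.06, edgeR adjusted p = 0.000523). Some of these rows share sequence with other genes. In GENCODE 29, 26.5% of the exonic bases of ACAT2 also lie in SOD2 and 9.23% in TCP1, both on the other strand. Since the strand setting of the counting is not given, reads of these genes cannot be told apart there. The 8 rows named as FDPS pseudogenes held 3 reads in all 4 libraries together.

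**Figure D3:**
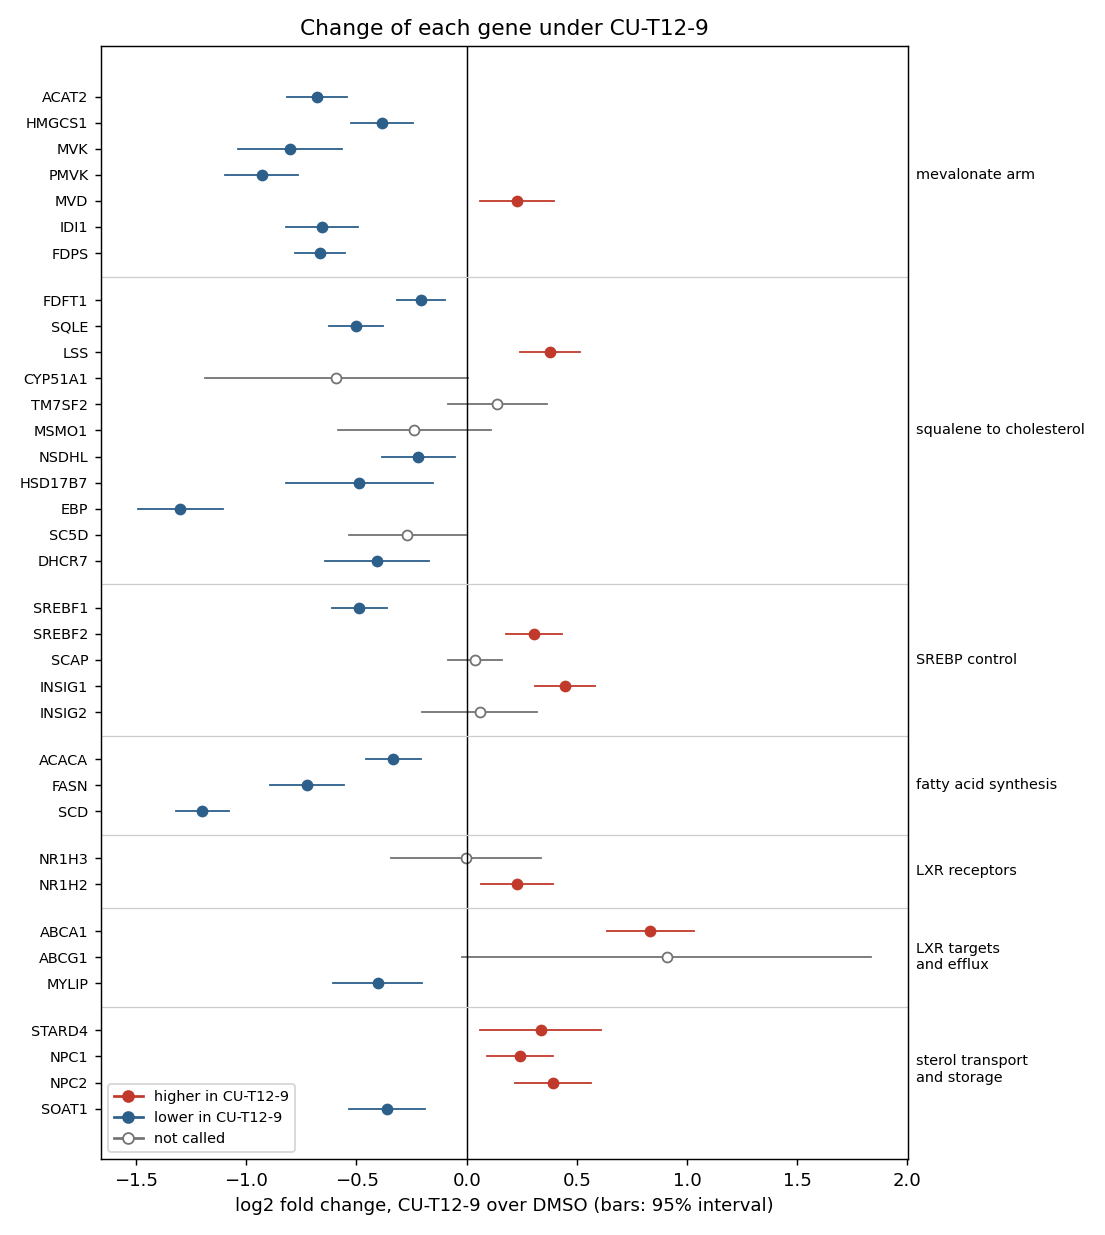
Log2 fold change of each of the 35 genes, CU-T12-9 over DMSO, in pathway order from top to bottom, with 95% intervals from the edgeR fit; filled red points rose, filled blue points fell and white points were not called. Falls line the synthesis groups, with EBP (-1.30) and SCD (-1.20) farthest left, while MVD, LSS, SREBF2, INSIG1 and most transport genes lie right of 0.

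From farnesyl diphosphate to cholesterol, 6 of 11 enzymes fell, 1 rose and 4 were not called (54.5% lower and 9.09% higher). Over all tested genes 33.2% were lower and 32% higher. The median log2 fold change of the 11 enzymes was -0.27. EBP, the isomerase that moves the sterol double bond late in the pathway, showed the largest fall of the 35 genes. It had 12.7 and 14.3 CPM under CU-T12-9 and 33.0 and 33.3 CPM under DMSO, so that every CU-T12-9 value was below every DMSO value by a wide margin. EBP was 2.46-fold lower (log2 fold change -1.30, SE 0.09, edgeR adjusted p = 1.33e-06). SQLE, squalene epoxidase, a rate-limiting oxygen-dependent step, had 103 and 108 CPM under CU-T12-9 and 153 and 146 CPM under DMSO. It fell 1.42-fold (log2 fold change -0.50, SE 0.05, edgeR adjusted p = 3.74e-05). Right after it in the pathway stands LSS, lanosterol synthase, which closes the first sterol ring system, and LSS rose. It had 68.0 and 68.0 CPM under CU-T12-9, above the 54.1 and 50.6 CPM under DMSO (1.30-fold higher, log2 fold change 0.38, SE 0.06, edgeR adjusted p = 0.000461). SQLE and LSS, neighbouring steps, were thus changed in opposite directions, and both calls held under all 10 alternatives other than the test against a fold of 1.5.

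Several calls among the remaining sterol enzymes were not kept under every alternative. FDFT1, squalene synthase, had 244.7 and 244.2 CPM under CU-T12-9 and 286.5 and 278 CPM under DMSO. The gap was narrow (log2 fold change -0.21, edgeR adjusted p = 0.00396) and was not called without the first DMSO library (adjusted p = 0.0797; range over alternatives 2.09e-06 to 0.0797). DHCR7, which completes cholesterol by reducing 7-dehydrocholesterol, had 11.5 and 11.5 CPM under CU-T12-9 and 16.3 and 14.2 CPM under DMSO (log2 fold change -0.41, edgeR adjusted p = 0.00749). The DHCR7 call was lost without the first DMSO library and with DESeq2 (adjusted p = 0.104 and 0.0529; range 0.000413 to 0.104). NSDHL and HSD17B7, which with MSMO1 remove the methyl groups at carbon 4 of the ring, had log2 fold changes of -0.22 and -0.49 (edgeR adjusted p = 0.0246 and 0.0162). Both calls were lost when the second DMSO library was left out (adjusted p = 0.286 and 0.128, the highest of their alternatives) and with DESeq2 (0.143 and 0.127), while their lowest adjusted p were 0.00295 and 0.00353.

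MSMO1, CYP51A1, SC5D and TM7SF2 were not called. MSMO1, the methylsterol oxidase, differed between the CU-T12-9 libraries, with 12.2 and 17.8 CPM, against 18.2 and 17.1 CPM under DMSO. The groups overlapped, and the log2 fold change of -0.24 (95% interval -0.59 to 0.11) became -0.54 without the second CU-T12-9 library and 0.04 without the first (adjusted p = 9.33e-07 and 0.726, the limits over its alternatives). CYP51A1, lanosterol demethylase, had only 45 and 27 reads under CU-T12-9 and 64 and 54 reads under DMSO. Its log2 fold change was -0.59 (95% interval -1.19 to 0.0040), called without the first CU-T12-9 library and when low-count genes were all kept (adjusted p = 0.00494 and 0.0388; range 0.00494 to 0.345). The row of this gene may hold part of its reads, since 79.4% of its exonic bases in GENCODE 29 also lie in another gene of the same strand and the handling of shared reads is not given. That other gene, AC000120.2, has no row under this name among the counts. A row of similar name, AC000120.7, held 22 reads in all libraries together. Whether the counting used the overlapping gene is thus not known. SC5D, sterol desaturase, had 13.3 and 14.3 CPM under CU-T12-9 and 18.3 and 14.9 CPM under DMSO (log2 fold change -0.27, 95% interval -0.53 to -0.0040). It passed without the second CU-T12-9 library, without the second DMSO library and with no filter (adjusted p = 0.00357, 0.0133 and 0.035; range 0.00357 to 0.567). TM7SF2, a sterol reductase, had 12.9 and 12.2 CPM under CU-T12-9 and 11.2 and 11.6 CPM under DMSO (log2 fold change 0.14, 95% interval -0.08 to 0.36).

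The regulators of SREBP went in different directions. SREBF1, which encodes SREBP-1 and is itself an LXR target, had 92.8 and 99.0 CPM under CU-T12-9 and 136.2 and 132.7 CPM under DMSO. It fell 1.40-fold (log2 fold change -0.49, SE 0.06, edgeR adjusted p = 4.98e-05). SREBF2, which encodes SREBP-2, the factor that favours cholesterol synthesis genes, was higher instead, with 370.4 and 404.5 CPM under CU-T12-9 and 314.7 and 312.6 CPM under DMSO (1.24-fold, log2 fold change 0.30, SE 0.06, edgeR adjusted p = 0.00104). INSIG1, the retention protein that is both a brake on SCAP and a target of SREBP, also rose, to 264 and 291 CPM under CU-T12-9, against 198 and 209.7 CPM under DMSO (1.36-fold, log2 fold change 0.45, SE 0.06, edgeR adjusted p = 0.000171). These 3 calls held without any single library. SCAP itself had 85.8 and 88.6 CPM under CU-T12-9 and 83.4 and 86.3 CPM under DMSO, overlapping, with a difference bounded between -0.08 and 0.16 on the log2 scale (95% interval). INSIG2, the paralog of INSIG1, had 11.8 and 14.4 CPM under CU-T12-9 and 12.8 and 12.4 CPM under DMSO (log2 fold change 0.06, 95% interval -0.20 to 0.32), and its sign turned without the second CU-T12-9 library (-0.09).

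Fatty acid synthesis, largely under SREBP-1, fell throughout its 3 genes, against 33.2% of all tested genes lower. SCD, the stearoyl-CoA desaturase, had 103 and 98.5 CPM under CU-T12-9 and 236.5 and 226 CPM under DMSO. That is 2.30-fold lower (log2 fold change -1.20, SE 0.05, edgeR adjusted p = 1.05e-07). FASN, fatty acid synthase, had 346.7 and 409.6 CPM under CU-T12-9 and 626.8 and 623.2 CPM under DMSO, 1.65-fold lower (log2 fold change -0.73, SE 0.07, edgeR adjusted p = 2.44e-05). The CU-T12-9 libraries differed from each other in FASN, yet both stayed far below DMSO. ACACA, acetyl-CoA carboxylase, which commits acetyl-CoA to fatty acids, moved least, with 109.9 and 102.4 CPM under CU-T12-9 and 132.3 and 135 CPM under DMSO (log2 fold change -0.33, SE 0.06, edgeR adjusted p = 0.0006).

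Tested against a fold of 1.5 instead of no change, 5 of the 35 genes were lower, EBP, SCD, PMVK, MVK and FASN (edgeR glmTreat adjusted p = 2.5e-05, 2.41e-06, 0.000744, 0.038 and 0.0496), and 1, ABCA1, was higher (adjusted p = 0.0107). Over all tested genes 12% were lower and 12.6% higher by that test. The other 21 of the 27 called genes did not pass this test.

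On the export side, ABCA1, the transporter that loads cholesterol onto apolipoproteins and a standard LXR target, had 25.5 and 23.7 CPM under CU-T12-9, above the 13.5 and 14.2 CPM under DMSO. It rose 1.78-fold (log2 fold change 0.83, SE 0.09, edgeR adjusted p = 2.8e-05), the largest called rise of the 35 genes. ABCG1, the transporter that passes cholesterol to lipoprotein particles, was barely read, with 13 and 20 reads under CU-T12-9 and 9 and 10 reads under DMSO. Its log2 fold change of 0.91 had a 95% interval of -0.02 to 1.84 and was not called (edgeR adjusted p = 0.0786), except when the first CU-T12-9 library was left out (adjusted p = 0.0324; range over 9 alternatives 0.0324 to 0.431). MYLIP, the LXR-induced ubiquitin ligase that degrades lipoprotein receptors, fell. It had 38.3 and 31.5 CPM under CU-T12-9 and 45.8 and 46.6 CPM under DMSO (log2 fold change -0.40, SE 0.09, edgeR adjusted p = 0.00333). Of the 3 genes listed here as LXR targets and efflux, then, ABCA1 and MYLIP changed in opposite directions. SREBF1, an LXR target listed under SREBP control, fell (log2 fold change -0.49).

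Of the 2 LXR receptors, 1 rose slightly and 1 was not called. NR1H3 (LXR alpha) had 5.09 and 5.83 CPM under CU-T12-9 and 5.14 and 5.80 CPM under DMSO, overlapping, with a difference bounded between -0.34 and 0.34 on the log2 scale (95% interval). NR1H2 (LXR beta) had 87.8 and 102 CPM under CU-T12-9 and 80.1 and 81.8 CPM under DMSO (log2 fold change 0.23, SE 0.07, edgeR adjusted p = 0.021). The NR1H2 call was lost when the first or the second DMSO library was omitted (adjusted p = 0.101 and 0.0541; range over alternatives 1.54e-12 to 0.101).

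Among the 4 transport and storage genes 3 rose and 1 fell (75% and 25%, against 32% and 33.2% of all tested genes). NPC2, which binds cholesterol inside the lysosome and hands it to NPC1, had 27.9 and 27.0 CPM under CU-T12-9 and 21.3 and 20.5 CPM under DMSO (1.31-fold higher, log2 fold change 0.39, SE 0.08, edgeR adjusted p = 0.00146). NPC1, the membrane partner, had 52.0 and 47.9 CPM under CU-T12-9 and 43.0 and 41.5 CPM under DMSO (log2 fold change 0.24, SE 0.07, edgeR adjusted p = 0.0105). STARD4, a cytosolic sterol carrier and SREBP target, had 12.1 and 14.5 CPM under CU-T12-9 and 11.1 and 9.98 CPM under DMSO (log2 fold change 0.34, SE 0.12, edgeR adjusted p = 0.0358). The NPC2 call held without any single library, whereas NPC1 was not called when the first or the second DMSO library was left out (adjusted p = 0.0531 and 0.129; range 4.13e-06 to 0.129). STARD4 was not called without the second CU-T12-9 library, without the second DMSO library or with DESeq2 (adjusted p = 0.129, 0.203 and 0.14; range 2.68e-05 to 0.203). SOAT1, which stores cholesterol as esters, was lower, with 28.1 and 31.3 CPM under CU-T12-9 and 39.1 and 37.1 CPM under DMSO (log2 fold change -0.36, SE 0.08, edgeR adjusted p = 0.00257).

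**Figure D4:**
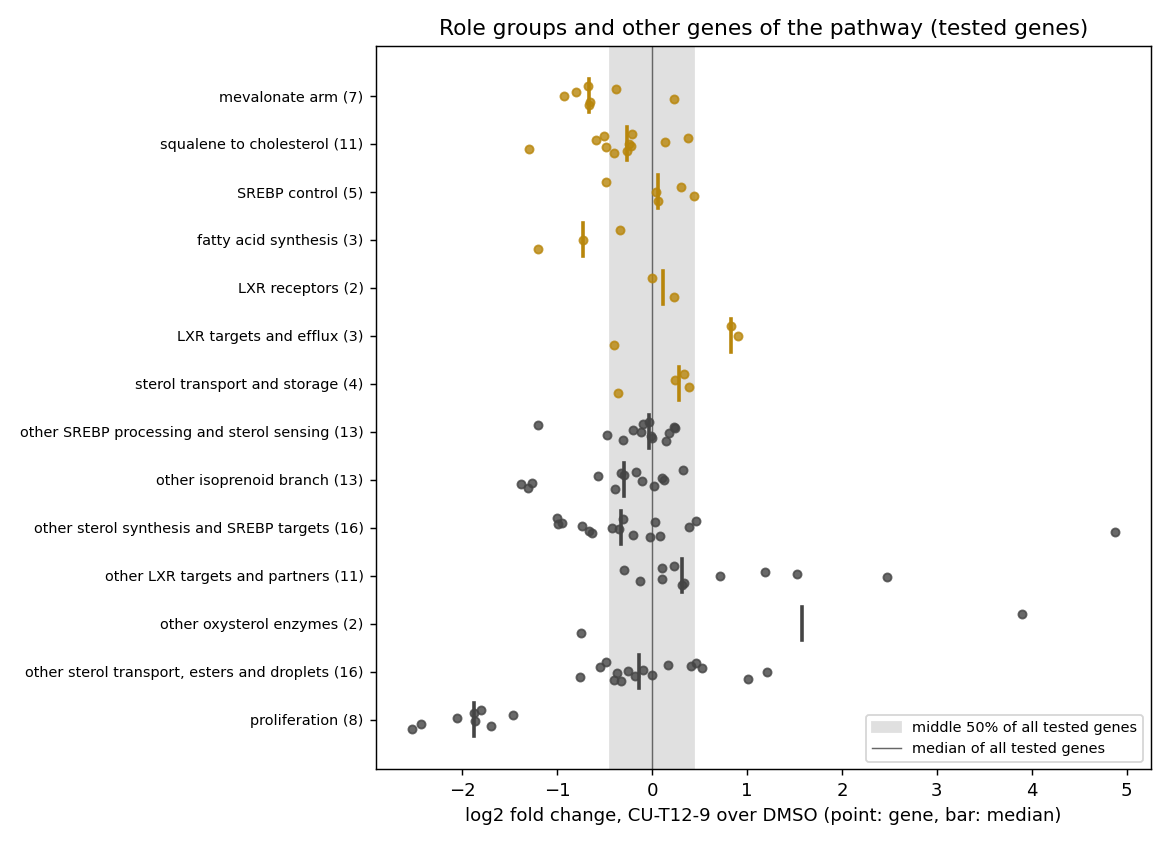
Log2 fold change, CU-T12-9 over DMSO, of each tested gene of the role groups (gold) and of other genes of the pathway and proliferation genes (dark), with the number of tested genes in brackets; short bars are medians and the grey band holds the middle 50% of all tested genes (-0.44 to 0.45). The mevalonate arm and fatty acid synthesis have medians left of the band, and the 3 genes listed as LXR targets and efflux right of it. ME1 (4.88) and CYP27A1 (3.90) stand far to the right, both with few reads under DMSO.

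Of 78 other genes of the pathway 71 were tested, of which 30 fell and 21 rose (71.8% called, against 65.2% of all tested genes). The 21 rises include ME1 and CYP27A1, both with few reads under DMSO (5 and 4 for ME1, 11 and 5 for CYP27A1). Among 16 further genes of sterol synthesis and SREBP targets, 10 fell and 3 rose, ME1 among the rises. These were 62.5% lower and 18.8% higher, against 33.2% and 32% of all tested genes, with a median log2 fold change of -0.33. The fatty acid desaturases FADS1 and FADS2 fell 1.99-fold and 1.67-fold, and the elongase ELOVL6 1.94-fold at a low level (2.40 ± 0.835 against 4.66 ± 0.515 CPM, SD, n = 2 each). ME1, malic enzyme, a source of NADPH, went the other way, with 139 and 112 reads under CU-T12-9 and 5 and 4 reads under DMSO. Having entered the test through its CU-T12-9 reads alone, ME1 is given as a description, with no p.

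In the branch that turns the mevalonate product into isoprenoids, 7 of 13 genes fell and 1 rose (53.8% lower and 7.69% higher, against 33.2% and 32% of all tested genes). PDSS1 and COQ2, which build the ubiquinone side chain and attach it, fell 2.60-fold and 2.41-fold. ICMT, which methylates prenylated proteins, fell 2.47-fold, to 58.0 ± 4.67 CPM under CU-T12-9 against 143 ± 6.53 CPM under DMSO (SD, n = 2 each). FNTB, the beta subunit of farnesyltransferase, had a log2 fold change of -0.57, not called once the second DMSO library was left out (adjusted p = 0.0722; range 2.69e-05 to 0.0722). Of 13 genes of SREBP processing and sterol sensing, 3 rose and 3 fell (46.2% called, against 65.2% of all tested genes). ERLIN1, which with ERLIN2 helps restrain SREBP in the endoplasmic reticulum, fell 2.30-fold, to 107 ± 3.86 CPM under CU-T12-9 against 247 ± 1.16 CPM under DMSO (SD, n = 2 each). ERLIN2, named here after its values were seen, rose 1.18-fold, with 169 and 174 CPM under CU-T12-9 and 144 and 147 CPM under DMSO (edgeR adjusted p = 0.00251).

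Among 14 other LXR targets and partners 11 were tested, 7 of which rose and 1 fell (63.6% higher and 9.09% lower, against 32% and 33.2% of all tested genes). The rises include RXRA, NCOR1 and NCOA1 (log2 fold change 0.24, 0.34 and 0.32), which are partners and not targets of LXR. LPCAT3 was the gene that fell (-0.29), and RXRB, MERTK and TTC39B were not called. These partners, LPCAT3 and the uncalled genes are named here after their values were seen. LPL, ABCG5 and ABCG8 had at most 1 read in any library. APOC1, an apolipoprotein of macrophages, rose 5.58-fold, to 18.8 ± 0.654 CPM under CU-T12-9 against 3.39 ± 0.937 CPM under DMSO (SD, n = 2 each). SMPDL3A, LXR-induced in human macrophages, rose 2.87-fold, to 4.32 ± 0.729 CPM under CU-T12-9 against 1.51 ± 0.174 CPM under DMSO (SD, n = 2 each). The phospholipid transfer protein PLTP (log2 fold change 0.71, edgeR adjusted p = 0.0307) was not called without the second CU-T12-9 library or without either DMSO library (adjusted p = 0.189, 0.0625 and 0.108), or by DESeq2 (0.157; range 0.000326 to 0.189). A gene could enter the test through the reads of either group alone. Among the tested genes of this list, SMPDL3A had the lowest DMSO level, with 36 and 39 reads.

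Of 5 enzymes that make or process oxysterols, the natural LXR ligands, CH25H and CYP7B1 had no read in any library, which allows up to 0.115 to 0.133 CPM at 3 reads a library. CYP46A1 had 3 and 2 reads under CU-T12-9 and 6 and 2 under DMSO. CYP27A1, the sterol 27-hydroxylase, had 105 and 118 reads under CU-T12-9 and 11 and 5 reads under DMSO, far apart. Its fold is poorly fixed by so few DMSO reads: the log2 fold change of 3.90 became 4.49 without the first DMSO library and 3.50 without the second. HSD3B7, which acts on the sterol ring in bile acid synthesis, fell 1.68-fold. Among 17 genes of sterol transport, esters and droplets, of which 16 were tested, 8 fell and 6 rose (87.5% called, against 65.2% of all tested genes). GRAMD1A, which moves plasma membrane cholesterol inward, rose 2.31-fold and the lipid scavenger receptor CD36 2.02-fold. SCARB1, the receptor for high-density lipoprotein, fell 1.70-fold, OSBPL5 fell 1.47-fold and OSBPL9 rose 1.44-fold, the last pair being oxysterol-binding protein relatives.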

How the data were processed

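Per the labels' protocols, total RNA of MV4;11 cells was extracted with a Zymo kit and made into Illumina libraries. The authors deposited read counts per gene symbol, with no row that names no gene; FastQC 0.11.7, TopHat2, featureCounts 1.5.2 and GRCh37 are named in the submitters' processing notes. Annotation, strand setting and the rule for shared reads were not given in the sources used here, so overlapping genes are uncertain.

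Counts were tested in R 4.3.3 with edgeR 4.0.16, by its quasi-likelihood test (group as the only term, filterByExpr, TMM, Benjamini-Hochberg over 14018 genes, threshold 0.05); the step was tested on simulated data. Standard errors are the log2 fold change over the square root of F. CPM uses TMM-adjusted library sizes. Chi-square per degree of freedom was 6.99 (CU-T12-9) and 2.42 (DMSO), so that replicates differed beyond sampling noise. Alternatives were RLE size factors, 2 other filters, DESeq2 1.42.0, limma-voom (limma 3.58.1), a test against a fold of 1.5, a replicate block and leaving out each library. All 35 genes are named; of each other list, up to 5 called genes with the largest log2 fold change of at least 0.5 in size, and every oxysterol enzyme; some genes this rule picks are not reported here. The members and lists were chosen with earlier results of these data known. Intervals and floors cover counting error or library spread only. Overlaps come from GENCODE 29 (GRCh38) and promoter windows from RefSeq (GRCh38.p14), used without the files' own coordinates.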

Additional observations from a re-analysis of the deposited data

How the results depend on the processing

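Of the 35 genes, 21 kept their sign and side of the threshold under all alternatives other than the test against a fold of 1.5. Against that fold, 1761 of all tested genes were higher and 1688 lower, 1 and 5 of the 35 genes, 0 and 3 of the cholesterol synthesis enzymes, and 1 and 0 of the export and transport genes; the test asks for more than any change. Without 1 library, 5 to 10 of the 35 genes were higher and 16 to 20 lower, 1 to 2 synthesis enzymes were higher and 10 to 14 lower, and 2 to 6 export and transport genes were higher and 2 lower. DESeq2 called 7 of the 35 genes higher and 15 lower, 1 synthesis enzyme higher and 9 lower, and 4 export and transport genes higher and 2 lower. Over the 16345 genes it tested, 3615 were higher and 3681 lower. The cause was not tested. The level of the synthesis enzymes, -0.43 as a log2 difference of geometric means (CU-T12-9 minus DMSO), was -0.41 with a pseudocount of 0.5, -0.39 as summed CPM and -0.41 with RLE size factors. That of the export and transport genes, 0.24, was 0.12 as summed CPM. Among the 35 genes the log2 fold change turned sign in 3, none of them called with all libraries; the cause was not tested. Leaving out 1 library gave -0.54 to 0.040 for MSMO1, -0.090 to 0.22 for INSIG2 and -0.10 to 0.13 for NR1H3, and NR1H3 was 0.011 with RLE size factors, 0.0058 with a filter of 1 CPM and 0.0041 with DESeq2. ABCG1 was not tested with the filter of 1 CPM. With the replicate number as a block, 9 of the 35 genes were higher and 18 lower, 4488 and 4655 of all tested genes, and no call among the 35 changed. The numbers are not said to pair libraries, and deviations of same-numbered libraries correlated at 0.0099 across genes. With 2 libraries a group, genes under about 1 CPM such as ABCG1 have wide intervals.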
